A study of Rattus norvegicus with 9 samples.

Results

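The mRNA levels of 10 genes of Toll-like receptor and NF-kB signaling were followed in the livers of rats with CCl4-induced fibrosis, with and without rottlerin. The genes were chosen by symbol, for their place in this pathway, from the 14377 genes that a probe set of the arrays names on its own. They are the receptors Tlr2 and Tlr4, the co-receptors Cd14 and Ly96, the adaptor Myd88, the NF-kB subunit gene Nfkb1, the inhibitor gene Nfkbia, and the cytokine genes Il1b, Il1rn and Tnf. Each was read by 1 probe set, a group of short oligonucleotides for the same transcript, apart from Tnf, which has 2. All 10 genes, with 11 probe sets, were measured. The choice of genes was made with earlier results of these data known.

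Liver RNA of 9 male Sprague–Dawley rats was hybridized to Affymetrix Rat Genome 230 arrays, 1 array per rat. The vehicle group, the CCl4 group and the group given CCl4 and rottlerin (CCl4+Rot) each held 3 rats. CCl4, a hepatotoxin that is used to induce fibrosis, was injected for 8 weeks. Rottlerin, used in this study as an activator of BK potassium channels, was injected at 2.5 mg/kg body weight from 2 weeks after the first CCl4 injection, so that the CCl4+Rot rats carried both treatments. Rats given rottlerin without CCl4 were not analysed here. The arrays carry the label numbers 3, 4 and 5 for vehicle, 1, 2 and 3 for CCl4, and 4, 5 and 6 for CCl4+Rot, and the values below are given in that order. Since whole liver was measured, fewer cells of a type and less RNA per cell cannot be told apart in any of these values.

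Toll-like receptors are membrane proteins that recognize microbial and damage-associated molecules. For lipopolysaccharide, the binding protein Lbp hands the ligand to Cd14, which passes it to the complex of Tlr4 and Ly96 (also called MD-2), while Tlr2 recognizes bacterial lipoproteins. Both receptors signal through the adaptor Myd88 and a kinase cascade that degrades the inhibitor encoded by Nfkbia and lets NF-kB dimers, among them that with the p50 product of Nfkb1, enter the nucleus and switch on genes such as Il1b and Tnf. In the liver, Kupffer cells carry much of this machinery, and hepatic stellate cells respond to lipopolysaccharide through Tlr4 as well.

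NF-kB is known to act on several genes of its own pathway, so the promoters were read for its binding sequence first. RefSeq promoters of build GRCr8, from 250 bases before to 50 bases after the start of the gene, were given for 9 of the 10 genes. Ly96 had none and was not searched. The NF-kB consensus was searched on both strands. It was found in 3 of these 9 promoters, those of Tlr2, Nfkb1 and Nfkbia, compared with 2515 of all 33469 promoters of this length (7.51%). A match is a description of the letters in the window and not a site of binding. The windows are shown because these genes stand at different steps of the pathway and carry the same consensus. They are written 5′ to 3′ on the gene's strand, with the match in capitals.
Tlr2, chr2:171504744-171504773, minus strand, match from 206 bases before the start: caggcccttgGGGGAATTCCcatacggagc
Tlr2, chr2:171504580-171504609, minus strand, match from 42 bases before the start: ccctggcctgGGGACGTCCCcttcccgcac
Nfkb1, chr2:226805440-226805469, minus strand, match from base 4 after the start: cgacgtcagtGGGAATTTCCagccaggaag
Nfkbia, chr6:78597084-78597113, minus strand, match from 31 bases before the start: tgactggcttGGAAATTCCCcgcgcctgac
In the first Tlr2 window a second match begins 1 base further on. The match of Nfkbia lies on the strand opposite to the gene.

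A probe set was called changed at an adjusted p below 0.05 (limma, Benjamini-Hochberg over all 31042 probe sets tested) and a fold of at least 1.5. By this rule 0 of the 10 genes were called between CCl4 and vehicle (0% of all probe sets), 0 between CCl4+Rot and CCl4 (0.00322%) and 0 between CCl4+Rot and vehicle (0.0258%). At an unadjusted p below 0.05, the counts were 1 (Ly96) for CCl4 against vehicle, 0 for CCl4+Rot against CCl4 and 2 (Ly96 and Tlr2) for CCl4+Rot against vehicle. The corresponding shares of all probe sets were 12.4%, 6.63% and 8.31%. The signals of the compared groups did not overlap for 2 of the 10 genes with CCl4 (18.3% of all probe sets), for 1 with rottlerin on top of CCl4 (11.6%) and for 3 between CCl4+Rot and vehicle (21.1%). A robust fit, in which the spread was modeled on the signal and outlying spreads weighed less, also called 0 of the 10 genes in each comparison, while it called 1.12%, 0.00322% and 0.776% of all probe sets. With 3 rats against 3, an exact two-sided permutation test cannot give a p below 0.1. The comparisons share their arrays pairwise, so their values are not independent of each other.

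**Figure D1:**
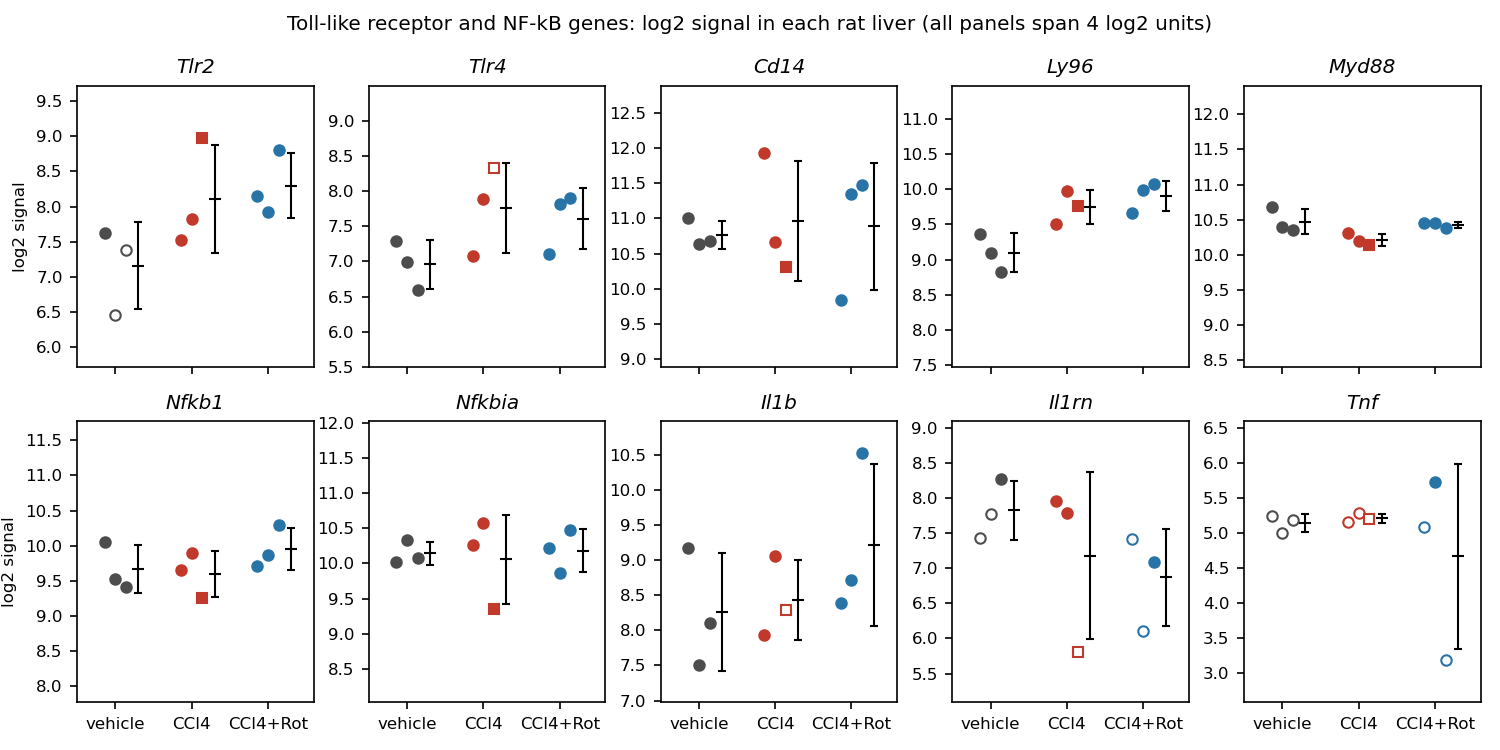
Log2 signal of the 10 genes on each of the 9 arrays, by group, with the group mean and SD (n = 3) to the right of the points. Filled symbols are arrays on which the transcript was called present, open symbols arrays on which it was not, and the square is CCl4 replicate 3. All CCl4 and CCl4+Rot livers lie above all vehicle livers for Ly96, and Tnf was called present on 1 array.

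One array stands apart. CCl4 replicate 3 had 12714 present calls, against 15550 to 16849 elsewhere. Its undetected transcripts were brighter, since 11183 probe sets without a present call on any of the remaining arrays reached a median of 5.92 (log2) here but 4.31 to 4.79 there. Transcripts detected on every array, 11231 in number, did not show this, with a median of 9.53 here and 9.51 to 9.58 there. Over all probe sets the median was 7.81 here and 6.79 to 7.01 there. Centring on this median, given below for several genes, therefore took the most off CCl4 replicate 3. For each of the 10 genes apart from Tnf, the comparisons with the CCl4 group are also given without this array.

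Among the receptor genes, those of the Tlr4 complex and Tlr2 had higher mean signals in CCl4-treated than in vehicle-treated livers under every scaling tried, and none passed the test. Cd14 had the largest SD of the 4 receptor genes in both CCl4-treated groups and the smallest in the vehicle group. Ly96 (chromosome 5), which encodes the subunit of the complex that binds lipopolysaccharide, was called present on all arrays. Its log2 signals were 9.37, 9.10 and 8.82 in vehicle livers, 9.50, 9.98 and 9.76 in CCl4 livers and 9.67, 9.99 and 10.07 in CCl4+Rot livers. Every CCl4 liver and every CCl4+Rot liver was above every vehicle liver, and the CCl4 and CCl4+Rot livers overlapped. The log2 difference of CCl4 from vehicle was 0.65 ± 0.221 (SE), which is 1.57-fold (unadjusted p = 0.0202, limma adjusted p = 0.324). Without CCl4 replicate 3 it was 0.64, and with each array left out in turn it ranged from 0.51 to 0.79, but it was 0.29 when each array was centred on its median over all probe sets. Between CCl4+Rot and vehicle the log2 difference was 0.81 ± 0.221 (SE), or 1.76-fold (unadjusted p = 0.00692, limma adjusted p = 0.351), with a range of 0.67 to 0.95 over the arrays left out. The robust fit gave adjusted p values of 0.116 and 0.0677 for these comparisons. Rottlerin on top of CCl4 left Ly96 0.16 higher on the log2 scale, with a 95% interval of -0.35 to 0.68 and a limma adjusted p of 0.867, and 0.17 higher without CCl4 replicate 3.

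Tlr4 (chromosome 5), the lipopolysaccharide receptor itself, had log2 signals of 7.29, 6.99 and 6.59 in vehicle livers, 7.07, 7.89 and 8.33 in CCl4 livers and 7.11, 7.82 and 7.90 in CCl4+Rot livers. The lowest liver of each treated group lay within the vehicle range, so the groups overlapped. The highest value, 8.33 on CCl4 replicate 3, came from the only array on which Tlr4 was not called present. CCl4 livers were higher than vehicle livers by a log2 difference of 0.81 ± 0.380 (SE; limma adjusted p = 0.439), which became 0.53 without this array and 0.45 after centring on the median of all probe sets. For CCl4+Rot the log2 difference from vehicle was 0.65, with a 95% interval of -0.23 to 1.54 (limma adjusted p = 0.757). The difference between CCl4+Rot and CCl4, -0.16 with an interval of -1.04 to 0.73, turned to 0.13 without CCl4 replicate 3 (limma adjusted p = 0.928 with all arrays).

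Tlr2 (chromosome 2) was called present on 1 vehicle array and on all 6 arrays of the CCl4-treated groups. Its log2 signals were 7.63, 6.46 and 7.38 with vehicle, 7.52, 7.82 and 8.97 with CCl4 and 8.15, 7.92 and 8.81 with CCl4+Rot. All 3 CCl4+Rot livers were above all vehicle livers, whereas the CCl4 and vehicle livers overlapped. The difference of CCl4+Rot from vehicle was 1.14 ± 0.476 (SE) on the log2 scale, or 2.20-fold (unadjusted p = 0.0453, limma adjusted p = 0.584). That of CCl4 from vehicle was 0.95 ± 0.476 (limma adjusted p = 0.460), and it was 0.52 without CCl4 replicate 3, the liver with the highest signal. Rottlerin on top of CCl4 gave a difference of 0.19 (limma adjusted p = 0.931), which was 0.62 without that array. Centring on the median of all probe sets gave 0.59 for the CCl4 difference and 0.44 for that with rottlerin.

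Cd14 (chromosome 18), the co-receptor that delivers lipopolysaccharide to the complex of Tlr4 and Ly96, was called present on all arrays. In vehicle livers its log2 signals were 11.00, 10.63 and 10.68. In CCl4 livers they were 11.93, 10.66 and 10.31, and in CCl4+Rot livers 9.84, 11.35 and 11.47. Individual rats of each treated group lay above and below the vehicle range, and the SD was 0.202 in the vehicle group, 0.854 in the CCl4 group and 0.907 in the CCl4+Rot group (n = 3 each). CCl4 livers differed from vehicle livers by 0.19 on the log2 scale, with a 95% interval of -1.08 to 1.47 (limma adjusted p = 0.898), and CCl4+Rot livers by 0.12 (limma adjusted p = 0.987). The CCl4 value was 0.52 without CCl4 replicate 3 and -0.16 after centring on the median of all probe sets. For CCl4+Rot against CCl4 the difference was -0.08, with an interval of -1.35 to 1.19 and a limma adjusted p of 0.978, and without CCl4 replicate 3 it was -0.41.

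**Figure D2:**
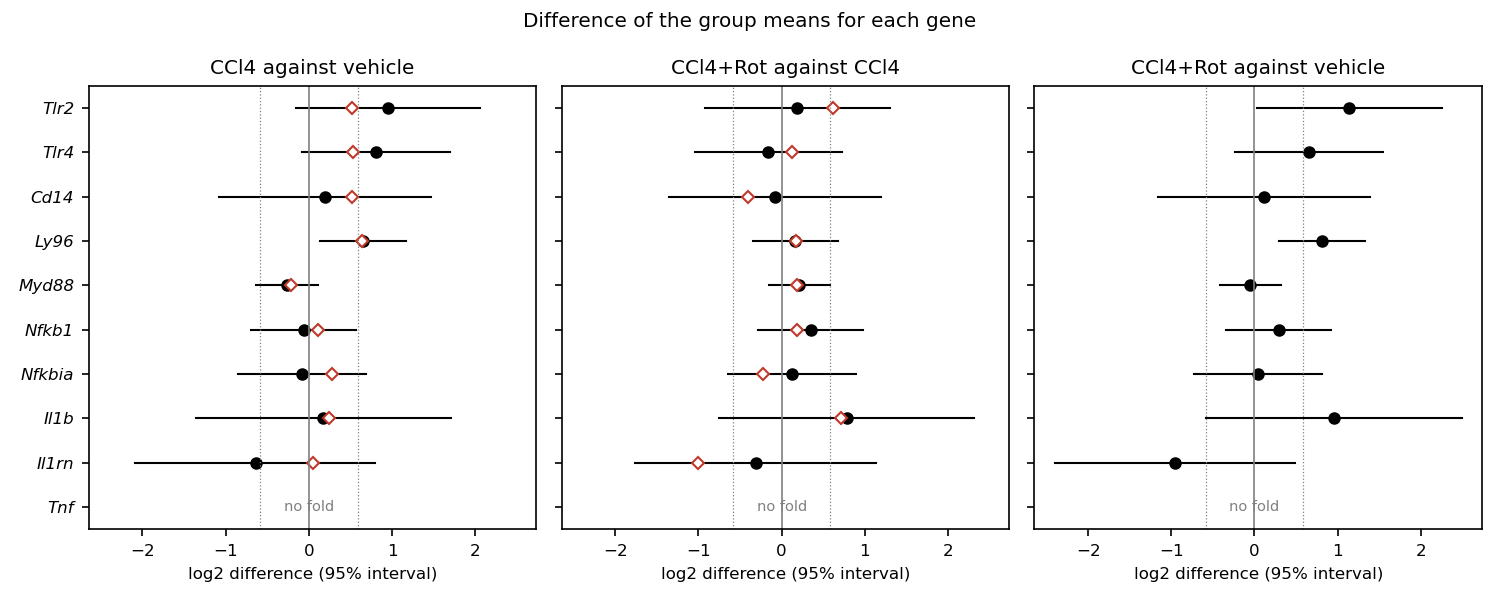
Log2 difference of the group means (filled circles) with its 95% interval (lines) for each gene in the 3 comparisons, from the limma fit over all arrays. Open diamonds give the difference without CCl4 replicate 3 for the comparisons with the CCl4 group, dotted lines mark 1.5-fold, and Tnf has no fold. The interval lies above 0 for Ly96 in both comparisons with vehicle and for Tlr2 between CCl4+Rot and vehicle, before any adjustment for the number of probe sets.

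Myd88 (chromosome 8), the adaptor shared by Tlr2, Tlr4 and the interleukin-1 receptor, had the narrowest spread within groups of the 10 genes in the CCl4+Rot group. Its log2 signals were 10.68, 10.39 and 10.35 in vehicle livers, 10.31, 10.19 and 10.14 in CCl4 livers and 10.45, 10.45 and 10.38 in CCl4+Rot livers. All CCl4 livers were below all livers of the vehicle and CCl4+Rot groups, which overlapped each other. The difference of CCl4 from vehicle was -0.26 ± 0.158 (SE) on the log2 scale, or 1.20-fold lower (limma adjusted p = 0.528). That of CCl4+Rot from CCl4 was 0.21 ± 0.158, or 1.16-fold higher (limma adjusted p = 0.783). Both were under 1.5-fold on the signals as deposited and did not pass the test, and they were -0.22 and 0.18 without CCl4 replicate 3. After centring on the median of all probe sets, which took the most off CCl4 replicate 3, they were -0.62, beyond 1.5-fold, and 0.46. Both differences use the same 3 CCl4 arrays.

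The genes of NF-kB and its inhibitor were called present on all arrays, and neither separated the groups. Nfkb1 (chromosome 2), the gene of the p105 precursor and its p50 product, had log2 signals of 10.06, 9.53 and 9.41 with vehicle, 9.66, 9.90 and 9.25 with CCl4 and 9.71, 9.87 and 10.29 with CCl4+Rot. The range of each group overlapped those of the others. CCl4 livers differed from vehicle livers by -0.06 on the log2 scale (95% interval -0.69 to 0.57, limma adjusted p = 0.938), which was 0.11 without CCl4 replicate 3, and CCl4+Rot livers from CCl4 livers by 0.35 (-0.28 to 0.98, limma adjusted p = 0.787), which was 0.18 without it. Centring on the median of all probe sets gave -0.42 and 0.60.

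Nfkbia (chromosome 6) encodes IkB-alpha, which holds NF-kB in the cytoplasm, and is itself a well-known target of NF-kB. Signals of 10.02, 10.33 and 10.08 were measured in vehicle livers, 10.26, 10.57 and 9.35 in CCl4 livers and 10.22, 9.86 and 10.47 in CCl4+Rot livers, on the log2 scale. The lowest of the 9 values was that of CCl4 replicate 3, while the other CCl4 livers lay within and above the vehicle range. CCl4 livers differed from vehicle livers by -0.08 with all arrays (limma adjusted p = 0.932) and 0.28 without this array. That of CCl4+Rot from CCl4 was 0.12 (limma adjusted p = 0.937) and -0.23 without it, so that both changed sign when this liver was left out.

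Of the cytokine genes, Il1rn and Tnf were called present on the fewest arrays of the 10 genes, and Il1b on as many as Tlr4. Il1b (chromosome 3), the gene of the inflammatory cytokine interleukin-1 beta, was called present on 8 of the 9 arrays. Its log2 signals were 9.17, 7.51 and 8.10 with vehicle, 7.94, 9.06 and 8.29 with CCl4 and 8.39, 8.72 and 10.53 with CCl4+Rot. The highest signal was that of CCl4+Rot replicate 6, and the 3 groups overlapped. Between CCl4 and vehicle the value was 0.17 (limma adjusted p = 0.927), which was -0.04 after quantile normalization and -0.18 after centring on the median of all probe sets. CCl4+Rot livers differed from CCl4 livers by 0.78 on the log2 scale, with a 95% interval of -0.75 to 2.31 and a limma adjusted p of 0.802. With each array left out in turn this value ranged from 0.12 to 1.19. Without CCl4 replicate 3 the CCl4 difference was 0.24 and that with rottlerin 0.71.

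Il1rn (chromosome 3) encodes the interleukin-1 receptor antagonist, which occupies the receptor without activating it. It was called present on 4 arrays, 1 with vehicle, 2 with CCl4 and 1 with CCl4+Rot. The log2 signals were 7.43, 7.77 and 8.27 in vehicle livers, 7.95, 7.78 and 5.81 in CCl4 livers and 7.42, 6.10 and 7.09 in CCl4+Rot livers. All CCl4+Rot livers were below all vehicle livers, the closest pair being 7.42 and 7.43, and the CCl4 group overlapped both. CCl4+Rot differed from vehicle by -0.95 ± 0.620 (SE) on the log2 scale (limma adjusted p = 0.802). For CCl4 against vehicle it was -0.64 with all arrays (limma adjusted p = 0.689) and 0.05 without CCl4 replicate 3, where Il1rn was not called present. In the comparison of CCl4+Rot with CCl4 the value was -0.31 (limma adjusted p = 0.910), and it was -1.00 without that array.

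Tnf (chromosome 20), the gene of tumor necrosis factor, was called present on 1 array in all, CCl4+Rot replicate 5. By its brighter probe set the log2 signals ran from 5.00 to 5.24 with vehicle, from 5.15 to 5.28 with CCl4 and from 3.19 to 5.73 with CCl4+Rot. The other probe set was called present on none of the 9 arrays. No fold is given for this gene. Neither vehicle nor CCl4 livers gave a signal that was called present. The CCl4+Rot mean of 4.66 was below their means of 5.14 and 5.21, so no lower limit of a fold could be set.

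Over the 10 genes, the median log2 difference was 0.12 for CCl4 against vehicle, compared with 0.18 over all probe sets tested and -0.01 over those called present on all arrays. For CCl4+Rot against CCl4 it was 0.14, compared with -0.12 and 0.02. For CCl4+Rot against vehicle it was 0.20, compared with 0.01 and -0.01. The shift of all probe sets in the comparisons with the CCl4 group was 0.01 in both without CCl4 replicate 3, and the median of the 10 genes was then 0.26 with CCl4 and 0.15 with rottlerin on top of it. These medians include the fitted value of Tnf, without which they were 0.17, 0.16 and 0.29.

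The other genes of the pathway were taken from lists of 82 genes by role, of which 63 were measured and 55 were called present on at least 3 arrays. The remaining 19, among them Tlr3, Tlr5, Tlr9, Irak4, Rel and Nlrp3, are not analysed here. Limma called 0 of the 63 in each of the 3 comparisons. With CCl4, 10 of the 63 had an unadjusted p below 0.05, 7 higher and 3 lower than vehicle, beside 12.4% of all probe sets, of which 2683 were higher and 1154 lower. With rottlerin on top of CCl4 there were 3, 2 higher and 1 lower, beside 6.63% of all probe sets, 612 higher and 1445 lower. Between CCl4+Rot and vehicle there were 12, 10 higher and 2 lower, beside 8.31% of all probe sets, 1747 higher and 833 lower. With CCl4 the groups did not overlap for 9 higher and 4 lower genes of the 63, beside 18.3% of all probe sets. With rottlerin on top of CCl4 these were 7 higher and 1 lower, beside 11.6%. Between CCl4+Rot and vehicle they were 18 higher and 6 lower, beside 21.1%. Among the 55 genes called present on at least 3 arrays, 5 higher and 3 lower had an unadjusted p below 0.05 with CCl4. Without overlap were 5 higher and 4 lower of these 55 genes. Between CCl4+Rot and vehicle the counts were 8 higher and 2 lower by unadjusted p, and 15 higher and 6 lower without overlap. With rottlerin on top of CCl4 the counts of the 55 and the 63 genes were the same. The median log2 differences of the 63 genes were 0.16, 0.09 and 0.21, and the first was 0.09 without CCl4 replicate 3. The robust fit called 2 of them with CCl4, Ptgs2 and Bcl3, none with rottlerin on top of CCl4, and Ptgs2 alone between CCl4+Rot and vehicle.

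**Figure D3:**
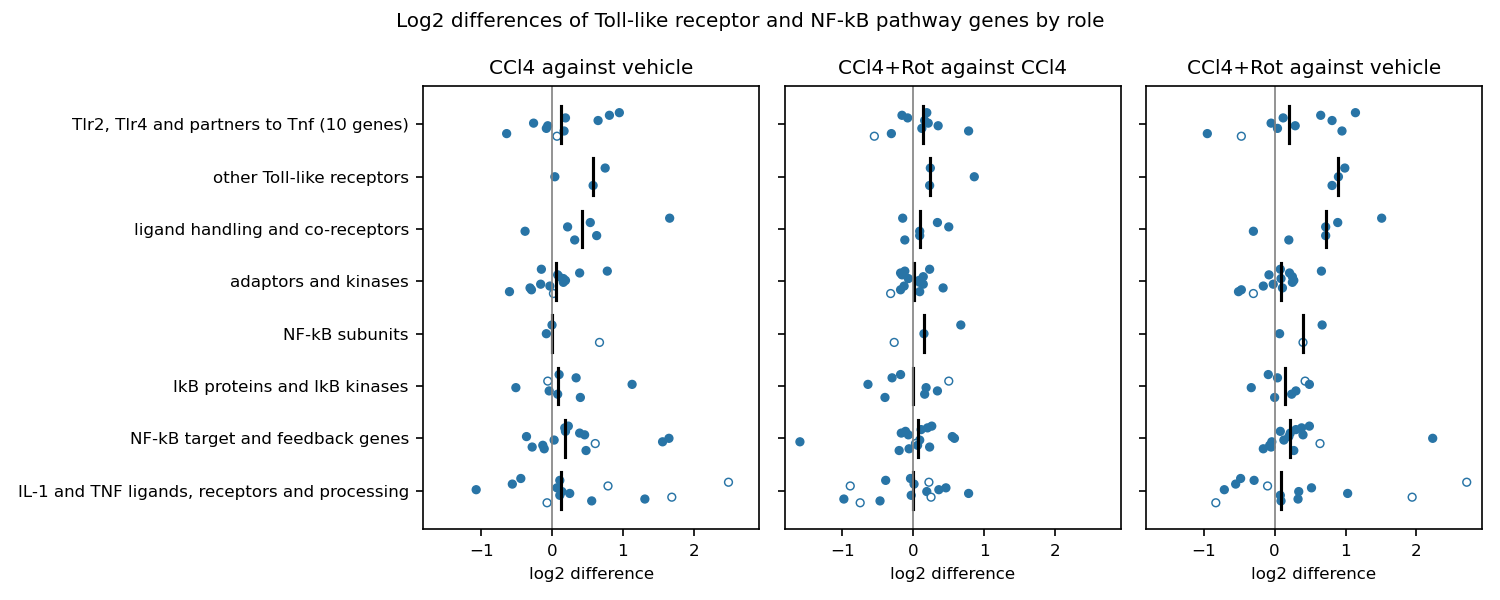
Log2 differences of single genes (points) by role in the pathway, with the median of each list as a vertical bar, in the 3 comparisons. Filled points are genes called present on at least 3 arrays, and open points are genes called present on fewer, whose values are fitted differences and not folds. The medians of the other Toll-like receptors and of ligand handling lie farthest to the right in both comparisons with vehicle, at 0.58 and 0.43 with CCl4 and at 0.90 and 0.72 with CCl4+Rot.

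By role, the receptor and ligand-handling lists had the highest medians in both comparisons with vehicle. The other Toll-like receptors measured were Tlr1, Tlr7 and Tlr8, and their median log2 difference was 0.58 with CCl4, 0.24 with rottlerin on top of it and 0.90 for CCl4+Rot against vehicle. Without CCl4 replicate 3 the values with CCl4 and with rottlerin on top of it were 0.37 and 0.45. Among the 6 genes of ligand handling and co-receptors, the medians were 0.43, 0.09 and 0.72, and the first was 0.33 without that array. Adaptors and kinases, with 14 genes, had medians of 0.05, 0.01 and 0.09. For the 15 NF-kB target and feedback genes the medians were 0.19, 0.06 and 0.22, and for the 14 genes of interleukin-1 and TNF ligands, receptors and processing they were 0.13, -0.01 and 0.08. The 8 genes of IkB proteins and IkB kinases had 0.09, -0.01 and 0.14, and the 3 NF-kB subunits 0.00, 0.15 and 0.40. The value of 0.40 is the fitted difference of Relb, which was called present on 1 array. Without CCl4 replicate 3 the medians of the last 5 lists lay between -0.03 and 0.21 with CCl4. With rottlerin on top of CCl4 they then lay between -0.05 and 0.25. None of these medians was tested.

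Of ligand handling, Lbp, the plasma protein that carries lipopolysaccharide to Cd14, had log2 signals of 10.93, 10.63 and 10.08 in vehicle livers, 11.61, 12.66 and 12.35 in CCl4 livers and 12.17, 11.29 and 12.70 in CCl4+Rot livers. Every liver of both CCl4-treated groups was above every vehicle liver. The log2 difference was 1.66 ± 0.437 (SE) with CCl4, or 3.17-fold (limma adjusted p = 0.249), and 1.51 ± 0.437 with CCl4+Rot, or 2.84-fold (limma adjusted p = 0.383). Rottlerin on top of CCl4 gave -0.15, with a 95% interval of -1.17 to 0.86, and -0.08 without CCl4 replicate 3. Unc93b1, which escorts nucleic acid-sensing Toll-like receptors to endosomes, was 0.63 higher with CCl4 and 0.72 higher with CCl4+Rot than with vehicle, in both cases without overlap (limma adjusted p = 0.326 and 0.391).

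Tlr7 and Tlr8 are endosomal receptors for single-stranded RNA. Tlr7 had log2 signals of 7.04, 7.12 and 6.08 with vehicle, 6.21, 7.36 and 6.79 with CCl4 and 7.61, 7.43 and 7.90 with CCl4+Rot. All CCl4+Rot livers were above all others, by 0.86 against CCl4 (limma adjusted p = 0.750) and by 0.90 against vehicle (limma adjusted p = 0.592). Tlr8 was 0.81 higher with CCl4+Rot than with vehicle, without overlap, and 0.58 higher with CCl4 than with vehicle, with overlap (limma adjusted p = 0.470 and 0.447). The CCl4 value was 0.37 without CCl4 replicate 3, and Tlr8 overlapped between CCl4+Rot and CCl4 (0.23, limma adjusted p = 0.852).

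Among genes downstream of the receptors, Ptgs2, which encodes the inducible cyclooxygenase COX-2 and is a target of NF-kB, had the smallest p of the listed genes in both comparisons with vehicle. Its log2 signals were 5.82, 5.44 and 5.91 in vehicle livers, 6.89, 7.84 and 7.40 in CCl4 livers and 7.71, 8.09 and 8.06 in CCl4+Rot livers, and it was called present on all arrays. Every liver of both treated groups was above every vehicle liver. CCl4 livers were higher by 1.65 ± 0.276 (SE), or 3.14-fold, with a limma adjusted p of 0.178 and a robust adjusted p of 0.0367. CCl4+Rot livers were higher than vehicle livers by 2.23 ± 0.276, or 4.68-fold, with a limma adjusted p of 0.097 and a robust adjusted p of 0.0103. The difference of CCl4+Rot from CCl4, 0.58 with a 95% interval of -0.06 to 1.22, did not pass (limma adjusted p = 0.752).

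Bcl3, an atypical IkB protein that acts in the nucleus on p50 and p52 dimers, had signals of 8.38, 8.23 and 8.28 with vehicle, 9.54, 8.99 and 9.77 with CCl4 and 8.44, 8.73 and 9.21 with CCl4+Rot, on the log2 scale. It was the single listed gene with an unadjusted p below 0.05 for lower signals with rottlerin on top of CCl4. CCl4 livers were above vehicle livers without overlap, by 1.13 ± 0.271 (SE), or 2.20-fold, with a limma adjusted p of 0.231 and a robust adjusted p of 0.0384. CCl4+Rot livers lay between, 0.64 below CCl4 livers on average but with overlap (unadjusted p = 0.0476, limma adjusted p = 0.750). Without CCl4 replicate 3 the CCl4 difference of Bcl3 was 0.97 and that with rottlerin -0.47, and the robust fit called Ptgs2 but not Bcl3 with CCl4.

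Chuk and Il33 were lower in CCl4 than in vehicle livers without overlap. Chuk, which encodes the kinase IKK-alpha, had log2 signals of 12.46 to 12.55 with vehicle, 11.94 to 12.05 with CCl4 and 12.00 to 12.26 with CCl4+Rot. CCl4 livers differed from vehicle livers by -0.51 ± 0.149 (SE), or 1.43-fold lower, with a limma adjusted p of 0.275. Il33, the gene of a nuclear alarmin of the interleukin-1 family, differed by -1.07 ± 0.361, or 2.11-fold lower (limma adjusted p = 0.317). Its CCl4+Rot livers, at 10.47 to 11.46, overlapped both other groups.

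With rottlerin on top of CCl4, Pycard, Nfkb2 and Icam1 were higher without overlap. Pycard, the adaptor of the inflammasome that leads to the release of interleukin-1 beta, had log2 signals of 8.86, 7.94 and 8.32 with vehicle, 8.29, 8.88 and 8.71 with CCl4 and 9.34, 9.43 and 9.45 with CCl4+Rot. The CCl4+Rot livers lay above all other livers, by 0.78 ± 0.269 (SE) against CCl4, or 1.72-fold (limma adjusted p = 0.724), and by 1.03 ± 0.269 against vehicle, or 2.04-fold (limma adjusted p = 0.322). Nfkb2, the gene of the p100 precursor and its p52 product, was 0.67 higher against CCl4, or 1.59-fold (limma adjusted p = 0.736), and Icam1, a leukocyte adhesion molecule and NF-kB target, 0.55 higher, or 1.47-fold (limma adjusted p = 0.752). The CCl4+Rot and vehicle livers overlapped for Icam1, with a log2 difference of 0.20.

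**Figure D4:**
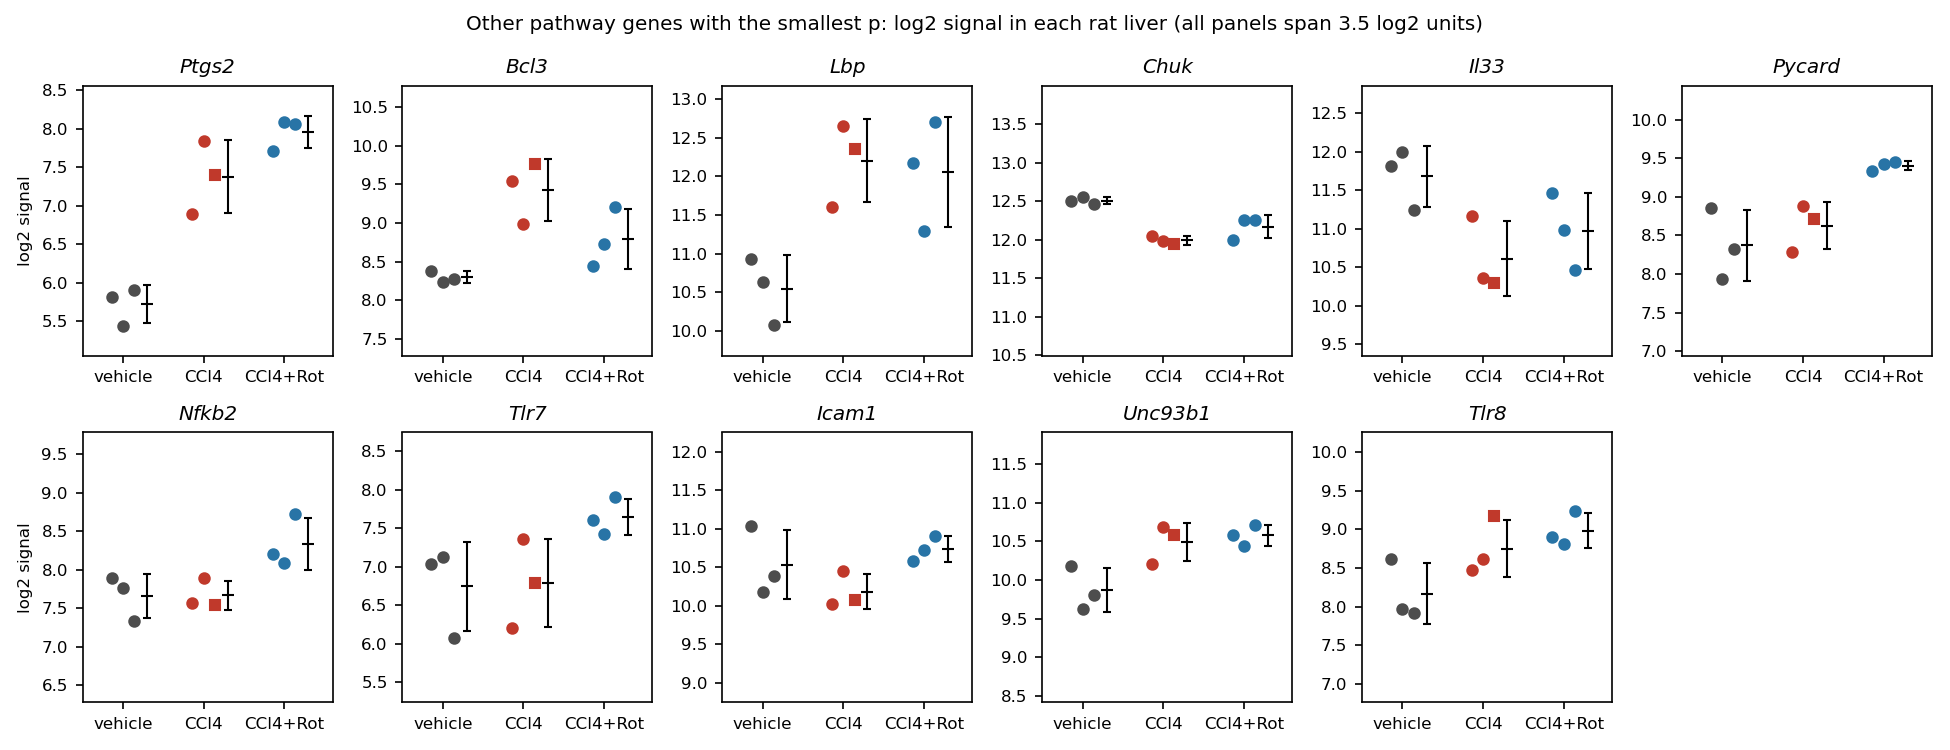
Log2 signal on each array of the 11 other pathway genes that had the 5 smallest p values in a comparison, by group, with the mean and SD (n = 3) to the right of the points. The square is CCl4 replicate 3. Ptgs2, Lbp, Bcl3 and Unc93b1 are higher in all CCl4 livers than in all vehicle livers, Chuk and Il33 are lower, and Pycard, Nfkb2 and Tlr7 are highest in the CCl4+Rot livers.

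Cxcl1, Il1r2 and Tnfrsf1b are added because of the size of their values, and were chosen after these were seen. Cxcl1, the gene of a neutrophil-attracting chemokine, had log2 signals of 11.12, 7.36 and 8.62 in CCl4 livers and of 6.68 to 8.32 in CCl4+Rot livers. Its difference of -1.60 between these groups was the lowest of the listed genes, rested on CCl4 replicate 1 and had a limma adjusted p of 0.765. Il1r2, the decoy receptor of interleukin-1, and Tnfrsf1b, the type 2 TNF receptor, had the highest fitted differences between CCl4 and vehicle. They were called present on 0 and 1 of the 9 arrays, and no fold is given for this comparison.

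Markers of liver cell types were read beside these genes, and limma called 0 of them in each comparison. The robust fit called 1 macrophage marker, Lyz2, and 3 of 7 stellate cell and myofibroblast markers higher with CCl4, beside 1.12% of all probe sets. Between CCl4+Rot and vehicle it called Lyz2 and 5 of these 7 higher, beside 0.776%. With rottlerin on top of CCl4 it called none. The mean log2 signal over 10 macrophage markers was 10.08 to 10.36 in vehicle livers, 10.28 to 10.83 in CCl4 livers and 10.87 to 11.11 in CCl4+Rot livers, with 9 of the 10 called present on all arrays and Itgam on none. Without Itgam the ranges were 10.70 to 11.15, 11.01 to 11.39 and 11.28 to 11.67, and neighboring groups overlapped. With CCl4, 6 of the 10 had a higher and 4 a lower mean than with vehicle (median log2 difference 0.24). In CCl4+Rot livers all 10 had a higher mean than in CCl4 livers (median 0.35). For 6 neutrophil markers the mean ran from 5.33 to 6.43 with vehicle, from 5.93 to 7.47 with CCl4 and from 7.08 to 7.46 with CCl4+Rot. Of these, 2 were called present on all arrays, and Camp and Cxcr2 on none. Over these 2, S100a9 and Lcn2, the ranges were 7.99 to 9.15, 9.17 to 10.77 and 9.97 to 11.33, without overlap between vehicle and CCl4. The part of these cells in the values of the pathway genes was not tested.

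Over 7 stellate cell and myofibroblast markers, the mean was 8.28 to 8.93 with vehicle, 9.60 to 10.25 with CCl4 and 10.09 to 10.31 with CCl4+Rot. Both treated groups thus lay above all vehicle livers. The 8 hepatocyte markers, called present on every array, gave 14.58 to 14.72, 13.93 to 14.68 and 14.54 to 14.64, and the lowest value was that of CCl4 replicate 3. Sinusoidal endothelial markers, 4 in number, stayed between 10.41 and 10.70 in all livers. The mean over 7 T and B cell markers was 5.64 to 6.37 with vehicle, 5.64 to 7.26 with CCl4 and 5.93 to 6.57 with CCl4+Rot. None of the 7 was called present on all arrays, and Cd3d, Cd4 and Cd8a were called present on none. Their part in the pathway values was likewise not tested.

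For the 5 genes called present on all arrays, the genes with the most similar pattern over the 9 arrays were found by Pearson's r among 7057 annotated genes that were also called present on all arrays. Ly96 was most similar to Tgfb3, a TGF-beta ligand (r = 0.984), Chek1, a checkpoint kinase (0.974), and Col5a1, a fibrillar collagen chain (0.973). For Nfkb1 they were C1s (0.966), a complement protease, Il17ra (0.935), the interleukin-17 receptor, and Ctsb (0.920), the lysosomal protease cathepsin B. Cd14 was closest to Hdlbp (0.944), Ufd1l (0.914) and Tmem185b (0.907). The nearest genes to Myd88 were Nek3 (0.947), Tysnd1 (0.947) and Lphn2 (0.943), and those to Nfkbia were Upf3a (0.982), Anapc13 (0.954) and LOC689574 (0.953). These values are the highest of many over 9 arrays that also share their group and array differences, and they describe the pattern only.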

How the data were processed

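Liver RNA of 9 rats was measured on 9 arrays, 3 per group, grouped by the sample titles. For 31099 probe sets the authors deposited log2 signals with present, marginal or absent calls. With 2% of the values trimmed at each end, the mean antilog is 500 on all arrays, so they had been scaled to a common mean. The submitters' processing notes name MAS5 and affy. Versions and the genome build are not given in the sources used here, and chromosomes are those of the deposited table.

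The log2 signals were used as deposited. After 57 control probe sets were left out, 31042 were fitted with limma 3.58.1 (R 4.3.3; lmFit, contrasts.fit, eBayes), with 3 group means over all 9 arrays, with Benjamini-Hochberg adjustment across all of them. Calls needed an adjusted p under 0.05 together with the 1.5-fold threshold of the study's methods. Of the probe sets that name a gene alone, the brightest on average stood for it. No fold is given where a gene was called present on no array of both groups, or only in a group whose mean signal was not the higher. The fits were tested on simulated data. The 3 rats per group limit the precision of every value.

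The 10 genes and the lists were chosen with earlier results of these data known. Named in the text are the 10 genes, the listed genes that were called or otherwise the 5 with the smallest p in each comparison among those called present on at least 3 arrays, and the 3 genes most similar to each of the 10 that was present on all arrays. Alternatives were 3 other scalings, 2 filters on low signals, the robust fit (statmod 1.5.0) and the t-test of the study's general statistics. Further ones were a fit of the compared groups only, other fold thresholds, the label number as a random block and each array left out in turn.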

Additional observations from a re-analysis of the deposited data

How the results depend on the processing

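The 27 differences of the 9 genes with a fold were recomputed with other scalings, filters, the robust spread, the block and each array left out, and none was called in these. In the settings that kept all arrays, 182 of 189 values kept their direction. Those that turned were, after centring on the median of all probe sets, Tlr4 with rottlerin on top of CCl4 (0.09), Cd14 with CCl4 (-0.16) and with rottlerin on top of it (0.17), Nfkbia between CCl4+Rot and vehicle (-0.07) and Il1b with CCl4 (-0.18), and after quantile normalization Il1b with CCl4 (-0.04) and Il1rn with rottlerin on top of CCl4 (0.05). Centring takes the same amount off all probe sets of an array. It moved the median of all probe sets with CCl4 from 0.18 to -0.18. The median signal of all probe sets was 7.81 (log2) on CCl4 replicate 3 and 6.79 to 7.01 elsewhere. After centring on the median of probe sets present on all arrays, the median difference with CCl4 was 0.17. The cause of the other shifts was not tested.

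With each array left out in turn, 220 of 243 values kept their direction. For each gene with a value that turned, the span of all its values is given. With CCl4, these values ranged from -0.29 to 0.52 for Cd14, from -0.21 to 0.13 for Nfkb1, from -0.34 to 0.28 for Nfkbia, from -0.20 to 0.63 for Il1b and from -1.03 to 0.05 for Il1rn. With rottlerin on top of CCl4, they ranged from -0.10 to 0.62 for Tlr2, from -0.50 to 0.13 for Tlr4, from -0.41 to 0.45 for Cd14, from -0.23 to 0.38 for Nfkbia and from -1.00 to 0.07 for Il1rn. Between CCl4+Rot and vehicle, they ranged from -0.18 to 0.64 for Cd14, from -0.11 to 0.06 for Myd88 and from -0.10 to 0.20 for Nfkbia.

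An unpaired t-test is named in the study's general statistics and not in its array methods. Without adjustment, at 1.5-fold, it gave 1 of the 10 genes with CCl4 and 1 between CCl4+Rot and vehicle, Ly96 in both. It gave 8, 2 and 9 of the 63 other pathway genes in the 3 comparisons, beside 5.71%, 2.74% and 6.85% of all probe sets. After Benjamini-Hochberg adjustment it gave 0. With a present call required on 3 or more arrays, 1 pathway gene was called with CCl4 and 1 between CCl4+Rot and vehicle, Ptgs2 in both. The robust fit called 2 and 1, and without CCl4 replicate 3, an alternative chosen after seeing the data, it called 1 and 1. With the lowest 30% of probe sets left out, 1 was called between CCl4+Rot and vehicle.

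The labels do not say whether the label numbers pair the rats, and the CCl4 and CCl4+Rot groups share no number. Arrays with the same number deviated from their group means with correlations of -0.005, -0.013 and -0.09. With the number as a random replicate block (consensus correlation -0.0327), 0 of the 10 genes were called, and Ly96 with CCl4 was 0.65. The mean over a gene's probe sets could not be tried for the genes with a fold, which have 1 probe set each.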
